A study of Mus musculus with 2 samples.

Results

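Mammals carry a family of 6 conventional actin genes, and all 6 are described here in newborn mouse skeletal muscle: Acta1 (skeletal), Actc1 (cardiac), Acta2 and Actg2 (smooth muscle), and Actb and Actg1 (cytoplasmic). The members were taken by gene symbol. They make up 6 of 43346 gene rows and 26 of 129984 transcript rows of the deposited tables. RNA came from skeletal muscle of B6NCrl mice, a C57BL/6N line, with no transgene or treatment named, at postnatal day 0. Each of 2 libraries was prepared by SmartSeq, a method in which whole cDNAs are amplified, from 13 pg of total RNA of 1 organ portion of 1 pup. That amount is equated in the labels with 1 cell, so a library samples a tissue extract and not a single isolated cell. Both are biological replicates of 1 group, sex was not collected and no other condition was measured. Their tissue records are separate, yet a single donor entry is given for both.

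Actin is the subunit of the thin filaments that myosin pulls on in the sarcomere and of the cytoskeletal filaments found in every cell. Skeletal and cardiac actin are the sarcomeric forms, and cardiac actin is a known major form of developing skeletal muscle that later gives way to the skeletal form. Smooth muscle actins are typical of vessel walls and the gut, and the cytoplasmic beta and gamma forms serve shape, movement and transport within cells.

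Values are TPM, a length-adjusted share of transcripts, and are given for replicate 1 and replicate 2 in that order, then as mean ± SD with n = 2. With 1 group and 2 libraries no test between conditions exists. A ratio of a pair of genes is said to exceed the spread where it has the same sign in both libraries and its mean is over 2 SD, which is a description and not a test. The spread can hold differences between pups, tissue portions and library preparation, including which molecules of 13 pg of RNA were sampled. With 2 libraries these parts cannot be told apart. In a tissue extract, fewer cells of a type and less RNA per cell cannot be told apart.

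The libraries held 32103374 and 38977618 expected counts, that is, estimated reads. Spike-in RNAs took 9.44% and 4.54% of TPM, so the share left for genes differed between the libraries. Detection here means 1 TPM or more together with 5 or more expected counts. In both libraries this held for 14 of 14 skeletal muscle markers, among them Myl1, Tnnc2 and Ckm, and for 5 of 6 actins. It held for 4356 of the 43346 gene rows and for 18.2% of the 21474 protein-coding ones. Of the 7979 protein-coding rows detected in either library, 51.0% were detected in 1 library alone. Of other cell types, 9 of 10 fibroblast, 5 of 8 endothelial, 6 of 8 blood and immune, 4 of 12 smooth muscle and mural, 3 of 10 heart and 2 of 4 muscle progenitor markers were detected in both.

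The actin genes are alike in their coding sequence, which bears on how their reads can be told apart. The first bases of each coding sequence are shown because Actb and Actg1 have their lowest identity to Acta1 here. They are from the GENCODE M21 transcripts, 5′ to 3′ on the strand of the gene, with capitals at bases that differ from Acta1 when the sequences are aligned from the stop codon. The coding sequence of Actg2 is 3 bases shorter than that of Acta1, and those of Actb and Actg1 are 6 bases shorter, so their own start codons align further in and stand in capitals. All of these bases lie in exon 2 of the named transcript.
Acta1-201: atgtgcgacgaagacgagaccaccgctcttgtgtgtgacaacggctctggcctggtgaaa
Actc1-201: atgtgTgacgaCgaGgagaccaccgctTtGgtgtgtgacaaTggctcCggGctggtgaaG
Acta2-201: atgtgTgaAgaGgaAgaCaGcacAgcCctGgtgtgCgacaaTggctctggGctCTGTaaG
Actg2-201: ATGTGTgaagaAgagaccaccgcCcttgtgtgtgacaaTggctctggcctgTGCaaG
Actb-201: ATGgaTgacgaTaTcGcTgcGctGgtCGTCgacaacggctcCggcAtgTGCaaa
Actg1-202: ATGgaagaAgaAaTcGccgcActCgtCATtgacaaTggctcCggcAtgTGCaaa

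In this stretch, aligned without gaps, 9 bases of Actc1, 17 of Acta2, 13 of Actg2, 19 of Actb and 18 of Actg1 differ from Acta1. For Actg2, Actb and Actg1 the shifted start adds to that number and lowers the identity found there. On GRCm38 (mm10) exon 2 lies at chr8:123893569-123893709 for Acta1, chr2:114051903-114052060 for Actc1 and chr19:34252425-34252576 for Acta2. It lies at chr6:83527316-83527477 for Actg2, chr5:142905564-142905692 for Actb and chr11:120347969-120348097 for Actg1. All 6 genes are on the minus strand and on different chromosomes. The gene spans are compact for Acta1 (chr8:123891769-123894751, 7 exons), Actb (chr5:142903115-142906754, 6 exons) and Actg1 (chr11:120345690-120348542, 6 exons). Actc1 (chr2:114047282-114053548, 7 exons), Acta2 (chr19:34241090-34255590, 9 exons) and Actg2 (chr6:83512905-83536265, 9 exons) are longer.

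Over the whole coding sequence, the sarcomeric actins Acta1 and Actc1 had 86.2% identical bases. Of their 378 codons 151 differed, and 4 of these coded for another amino acid. The cytoplasmic actins Actb and Actg1 had 88.7% identical bases, with 125 of 376 codons differing and again 4 coding for another amino acid. Between the skeletal and the cytoplasmic form, Acta1 and Actb had 85.0% identical bases, close to the value for the sarcomeric genes, but 25 codons coded for another amino acid. The base at the third codon position made up 94.9% of the differing bases between Acta1 and Actc1 and 76.3% of those between Acta1 and Actb. All 6 genes shared the same base at 787 of 1128 aligned positions (69.8%), and the longest run common to all was 14 bases. Exact runs were short against the length of the coding sequence. Acta1 and Actb had the longest shared run of any pair of members, 77 bases.

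**Figure D1:**
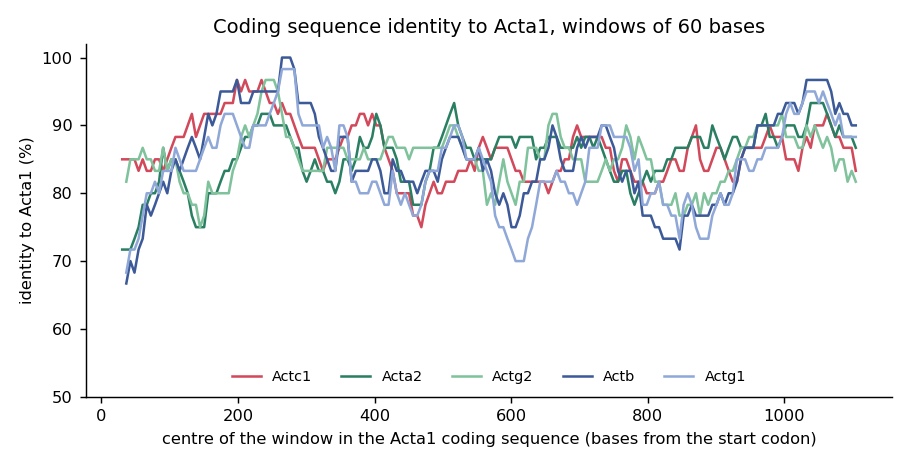
Coding sequence identity of 5 actin genes to Acta1 (vertical axis, percent of bases) in windows of 60 bases along the Acta1 coding sequence (horizontal axis, bases from the start codon). Lines of all 5 genes run close together for most of the length; Actb stands at 66.7% at the start of the coding sequence and reaches 100% in the window from base 247 to base 306.

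Most actins shared no exact stretch of 100 bases with another gene. Windows of 100 bases were cut from each main transcript and looked for, as exact matches, in the transcripts of all other genes. How reads with mismatches would be placed was not tested. No window of Acta1, Actc1, Acta2 or Actg2 occurred in another gene, and no window of any actin occurred in another actin. Actb shared 20 of 1821 windows (1.10%) with the processed pseudogene Gm15725 (chr16:37882542-37883631), which lies inside Lrrc58. Actg1 shared 946 of 1853 windows (51.1%), all with processed pseudogenes, of which Gm12715 (chr4:103563402-103564529) matched 823 windows and Gm8399 (chr13:81064684-81065800) 327. With windows of 31 bases, shares rose to 35.3% for Actb and 57.1% for Actg1, against 0.832% to 4.45% for the other 4 genes. Cytoplasmic actins were thus the members with the largest share of exact sequence in common with copies elsewhere in the genome.

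The reads that were assigned to such pseudogenes were few. Of 17 related pseudogenes 11 had a row in the tables, and 4 had at least 5 expected counts in either library. Gm15725 had 1932 expected counts in replicate 1 and 0 in replicate 2. Gm12715 had 317 and 130, Gm8399 had 73.4 and 48.3, and Actg-ps1 had 1.96 and 7.95. Counts of pseudogenes with a row were 1.92% and 0.00378% of the sum with the parent gene for Actb, and 0.839% and 0.623% for Actg1. The related pseudogenes without a row all belong to Actg1, among them Gm16385, which shares 93 windows of 100 bases with it. No counts are given for these, so the percentages of Actg1 leave them out. These counts are uncertain in themselves, since the sequence shared with the parent leaves the split to the estimate. The 20 windows of 100 bases that Actb shares with Gm15725 also occur in Lrrc58, which had 3083 and 4140 expected counts. The part of Lrrc58 in the reads given to Gm15725 was not tested. The deposited posterior SD of the count was highest for Actg1, at 32.31 and 20.79 reads, followed by Actb at 7.08 and 5.18, and was at most 0.40 for the other members.

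Sarcomeric actin dominated the family. Acta1 had 64537 and 61754 TPM, the highest level of any gene in both libraries (63145 ± 1968). Actc1 had 5671 and 8721 TPM (7196 ± 2157), which placed it 18th and 14th among genes. The next member was Actb with 2289 and 1534 TPM (1911 ± 534), at rank 44 and 76. Actg1 had 1108 and 594 TPM (851 ± 363), at rank 97 and 236. Acta2 had 319 and 487 TPM (403 ± 119), at rank 430 and 295. Actg2 had 0 and 42.3 TPM, so that it was seen in replicate 2 alone. The order of the 6 levels, from Acta1 through Actc1, Actb, Actg1 and Acta2 to Actg2, was the same in both libraries.

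**Figure D2:**
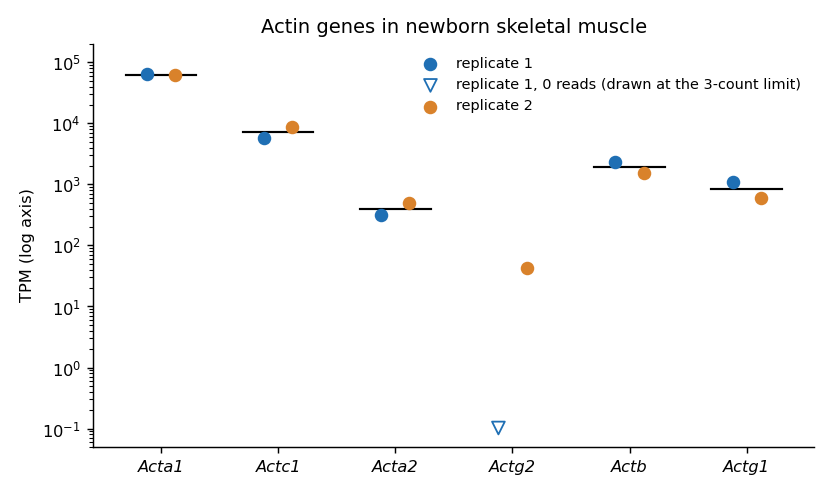
TPM (vertical log axis) of the 6 actin genes in replicate 1 and replicate 2; points are libraries and horizontal bars are means of 2. Acta1 lies near 63145 in both libraries, and Actg2, with 0 reads in replicate 1, is drawn there as an open triangle at the level that 3 counts would give, 0.102 TPM.

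The neighbours in this order were mostly apart by more than their spread. Acta1 exceeded Actc1 11.4-fold and 7.08-fold, a log2 ratio of 3.17 ± 0.48. Actc1 exceeded Actb 2.48-fold and 5.69-fold, a log2 ratio of 1.91 ± 0.85. Actb exceeded Actg1 2.07-fold and 2.58-fold, a log2 ratio of 1.21 ± 0.23. Each of these 3 ratios exceeded 2 SD. Actg1 and Acta2 did not separate, with Actg1 3.48-fold and 1.22-fold higher, a log2 ratio of 1.04 ± 1.07. Actb exceeded Acta2 at 2.25 ± 0.84. The ratio of Actc1 to Acta2 was nearly the same in both libraries, at 17.8-fold and 17.9-fold.

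By class, skeletal actin took 87.3% and 84.4% of the summed actin TPM (85.9 ± 2.02%), and cardiac actin took 7.67% and 11.9% (9.80 ± 3.01%). The cytoplasmic pair took 4.59% and 2.91% (3.75 ± 1.19%) and the smooth muscle pair 0.431% and 0.724% (0.577 ± 0.207%). The sarcomeric genes together were 20.7-fold and 33.1-fold above the cytoplasmic genes, a log2 ratio of 4.71 ± 0.48. Skeletal and cytoplasmic actin thus had the larger share in replicate 1 and cardiac and smooth muscle actin in replicate 2. The sum of the family, most of it Acta1, differed less between the libraries than its members did. It was 7.39% and 7.31% of all TPM (7.35 ± 0.0558%) and 8.05% and 8.13% of the expected counts on genes. All TPM includes the spike-ins, whose share differed between the libraries, so the near-equal TPM shares depend on that total. Scaled to genes only, the level of Acta1 was 67980 ± 4644 TPM, against 63145 ± 1968 as reported.

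Actc1 was high in both libraries, and 3 of 10 markers of heart muscle were detected in both, against 18.2% of protein-coding gene rows. Of the 10, Ryr2, Pln, Tnni3, Nppa and Nppb had 0 counts in both libraries. Myh6, the alpha myosin heavy chain of the heart, had 9.02 and 4.60 expected counts, and Myl7, the atrial regulatory light chain, had 0 and 1. The other 3 were Sln, a regulator of the calcium pump, at 4254 and 6369 TPM, Myl3 at 446 and 200, and Myl2 at 223 and 338. Sln, Myl2 and Myl3 are also expressed in skeletal muscle, in part in slow fibres. The part of heart cells in the level of Actc1 was not tested.

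Of the smooth muscle actins, 1 was found in both libraries and 1 in replicate 2 alone. Acta2 rested on 13073 and 25609 expected counts and Actg2 on 0 and 1597, the latter with an exact Poisson interval at 95% of 1520 to 1677. For the count of 0 a limit of 3 counts was set, where the exact Poisson upper limit is 3.69. For the transcript length seen in replicate 2, 3 counts are 0.102 TPM, and Actg2 in replicate 2 was 416-fold above that level. The size of the difference rests on the limit chosen, since the deposited credibility interval of Actg2 in replicate 1 is wider and reaches 0.480 TPM. Acta2 exceeded Actg2 11.5-fold in replicate 2. Intervals and limits cover counting error only, since amplified reads without molecular identifiers are not independent molecules.

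Markers of smooth muscle and mural cells, the contractile cells of vessel walls, were in part found in 1 library alone. This held for 7 of the 11 detected in either library, against 51.0% of protein-coding gene rows detected in either. Their summed TPM was 258 in replicate 1 and 406 in replicate 2, of which Synpo2 alone gave 97.2 and 94.8. Whether other cells of the tissue, muscle fibres among them, express genes of this list was not tested. Of the 12, 4 were detected in both libraries: Synpo2 at 97.2 and 94.8 TPM, Smtn at 56.6 and 132, Kcnj8 at 19.0 and 88.2, and Rgs5 at 53.0 and 31.6. Found in replicate 2 alone, as Actg2 was, were Myh11, the smooth muscle myosin heavy chain, with 0 and 1504 expected counts, the calponin gene Cnn1 with 0 and 1487, Tagln with 1.00 and 1084, and the pericyte proteoglycan gene Cspg4 with 26.0 and 1853. In replicate 1 alone stood Mylk, the myosin light chain kinase, with 2450 and 0, the receptor gene Pdgfrb with 1491 and 105, and Notch3 with 1396 and 25. Lmod1 had 0 in both. Whether the level of smooth muscle actin followed the amount of these cells in each portion was not tested.

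The cytoplasmic actins are used by every cell type of the tissue, so the levels of marker lists are given beside them. Actb rested on 98819 and 84723 expected counts and Actg1 on 46799 and 29697, and both had the higher TPM in replicate 1. Summed TPM of the fibroblast list was 8404 and 5622, of the endothelial list 532 and 259, and of the blood and immune list 2835 and 2292. The summed TPM of the skeletal muscle list was 87522 and 115746. Endothelial markers at 0 were Kdr in replicate 1 and Emcn in replicate 2. S100a4 of the fibroblast list was at 0 in replicate 2, and among blood and immune markers Cd68 was at 0 in replicate 1 and Ptprc in replicate 2. The fibroblast list was led by the collagens Col3a1 at 2679 and 1637 TPM and Col1a1 at 1829 and 784 and by Postn at 1084 and 1079. The endothelial list was led by Egfl7 at 209 and 140 TPM, Pecam1 at 182 and 0.0600 and Esam at 74.5 and 88.8. Blood and immune markers were led by the globins Hbb-bs at 991 and 909 TPM and Hba-a1 at 573 and 816 and by the mast cell gene Cpa3 at 646 and 272. Muscle progenitor markers gave a summed TPM of 357 and 337, nearly all from Mymk, the myoblast fusion gene, at 340 and 319. A sum rests mostly on its highest members. Genes of the fibroblast, endothelial and blood and immune lists went both ways, as Lum at 104 and 216 TPM, Esam and Hba-a1 were higher in replicate 2. The part of these cell types in the actin levels was not tested.

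Replicate 1 was set against replicate 2 with log2 ratios centred on the median of 4872 genes, those with 10 or more expected counts in each library. The centred log2 ratio was 0.01 for Acta1, −0.67 for Actc1, −0.66 for Acta2, 0.53 for Actb and 0.85 for Actg1. None of these 5 members was past 2-fold, whereas 51.0% of the genes were, 24.9% higher in replicate 1 and 26.0% higher in replicate 2. Many of those genes had low counts, and of 314 genes with 10000 or more in each, as these 5 actins had, 12.7% were past 2-fold. The median size of the centred log2 ratio was 0.66 for the 5 actins and 0.43 for the 314 genes. Acta1 was the only member close to 0, and the actins were not steadier than other genes of like depth.

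Directions between the libraries depended on the reference. The median spike-in ratio stood 0.93 log2 above the median gene, so centring on spike-ins moved every member by that amount toward replicate 2. Acta1 then stood at −0.92, Actc1 and Acta2 at −1.60, Actb at −0.41 and Actg1 at −0.09, so that Acta1, Actb and Actg1 changed sign and Actc1 and Acta2 passed 2-fold. Of all genes, 12.3% were then past 2-fold in replicate 1 and 48.3% in replicate 2. Centred on the median gene, the medians of the fibroblast, endothelial and blood and immune lists were 0.49, 0.53 and 0.68. Each is smaller than the shift of 0.93, so their direction also depended on the reference. With TMM factors on expected counts, which are not adjusted for length, Actg1 was past 2-fold at 1.02. Ratios between members, such as those of Actc1 to Actb, are not touched by the choice of centring.

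**Figure D3:**
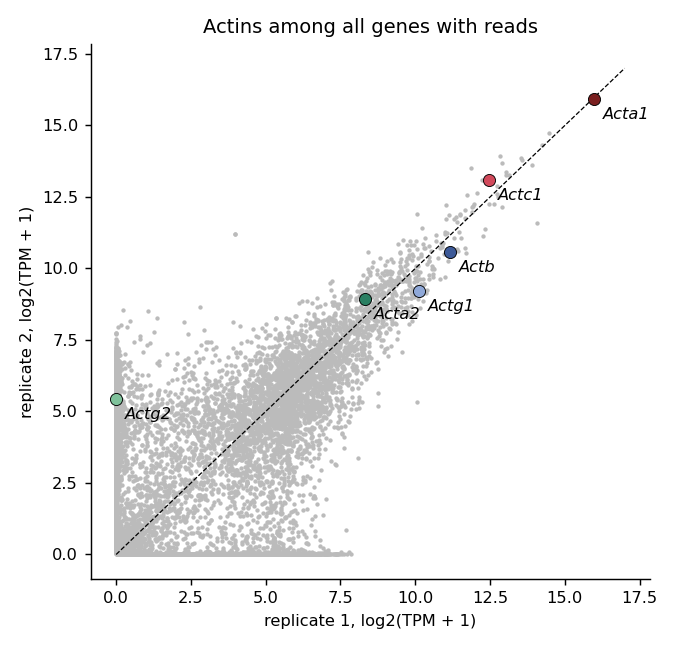
log2(TPM + 1) of genes with at least 5 expected counts in either library (grey points), replicate 1 on the horizontal and replicate 2 on the vertical axis, with the 6 actins marked and the line of equal values dashed. Acta1 lies at the upper end of the cloud, Actc1 and Acta2 above the line, Actb and Actg1 below it, and Actg2 on the vertical axis with the genes seen in replicate 2 alone.

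The muscle actins have few listed transcripts. Acta1-201 and Acta2-201 are the only listed transcripts of their genes, so their full share is fixed by the annotation. Actc1 has a second, short one, Actc1-202, which took 0.0296% and 0.00722% of the gene. The 2 main transcripts of Actg2 in replicate 2 were Actg2-201 at 71.2% and Actg2-202 at 27.0%. They differ in the first exon, which is at chr6:83536180-83536265 in Actg2-201 and at chr6:83527958-83527990 in Actg2-202, and share exons 2 to 8. Their coding sequence is the same. The deposited credibility intervals in replicate 2 were 23.4 to 37.1 TPM for Actg2-201 and 3.51 to 17.5 TPM for Actg2-202. The split is thus loosely fixed and rests on 1 library.

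The cytoplasmic genes have more listed forms, 8 for Actb and 9 for Actg1, against 5 for Actg2. Actb-201 took 95.1% and 94.9% of Actb (SD 0.161) and was close to equal in both libraries. Transcripts of Actb with a retained intron took 3.81% and 1.31%. Actg1 was split between Actg1-202 at 51.4% and 39.3% (45.4 ± 8.58%) and Actg1-204 at 42.1% and 42.9% (42.5 ± 0.541%). The exons of Actg1-204 lie within those of Actg1-202 and hold the same coding sequence, but the annotated Actg1-204 begins at the start codon in exon 2 and has no exon 1, so the split rests on reads from a short 5′ stretch. Retained-intron transcripts of Actg1 took 3.97% and 17.7%. Of these, Actg1-209 took 3.92% and 11.6% and Actg1-207 0.0488% and 6.13%, so both were higher in replicate 2, where Actg1 as a whole was lower. Protein-coding transcripts made up 96.0% and 82.2% of Actg1, against 95.1% in each library for Actb.

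**Figure D4:**
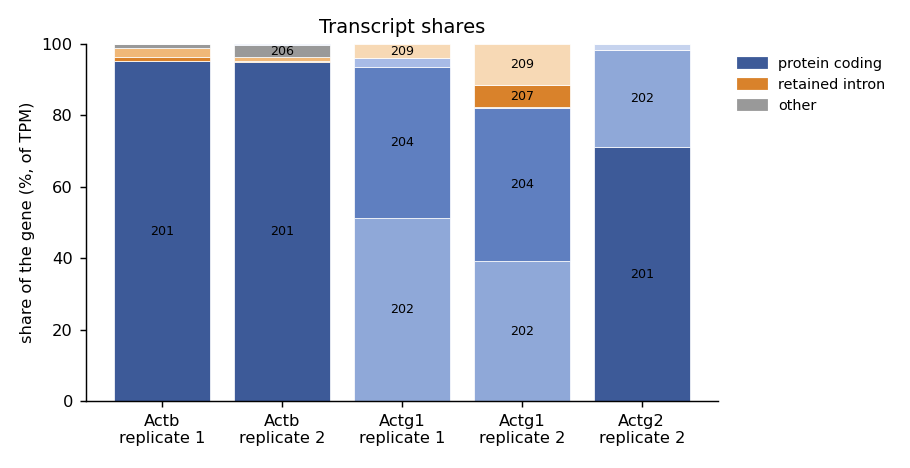
Share of each gene's TPM (vertical axis, percent) taken by its transcripts for Actb and Actg1 in both libraries and Actg2 in replicate 2, with transcript numbers written in the larger segments. Shades of blue are protein-coding, shades of orange retained-intron and grey other transcripts; the orange part of Actg1 is 3.97% in replicate 1 and 17.7% in replicate 2.

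Several actin genes are known targets of SRF, the serum response factor, which binds a short motif named the CArG box together with the MRTF coactivators that sense free actin. RefSeq promoter windows of GRCm38.p6, from 250 bases before to 50 bases after the start, were at hand for Acta1, Actc1, Acta2 and Actg1. Letters were searched on both strands, first the exact CArG box and then the box with 1 changed base in its inner part. A box was present in the windows of Acta1, Actc1 and Actg1, against 1.63% of 32851 promoter windows. Acta2 held no exact box but 2 with 1 changed inner base, and 8.50% of all windows held at least 1 such box. The exact box of each of the first 3 genes is shown with 10 bases on each side, 5′ to 3′ on the strand of the gene, with the box in capitals.
Acta1, chr8:123894829-123894858, minus strand: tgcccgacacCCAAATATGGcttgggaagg
Actc1, chr2:114052903-114052932, minus strand: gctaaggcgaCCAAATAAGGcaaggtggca
Actg1, chr11:120348566-120348595, minus strand: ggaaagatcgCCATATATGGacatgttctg

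Counted from the RefSeq start, these boxes start 73 bases before it in Acta1, 47 in Actc1 and 90 in Actg1. The GENCODE M21 start can differ from it, and both changed boxes of Acta2 lie within exon 1 of the longer GENCODE transcript Acta2-201 (chr19:34255290-34255590). Acta1 had 2 and Actc1 had 3 further boxes with 1 changed inner base. A match of letters is a description and shows no binding.

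Of 14 genes of the SRF list, 6 were detected in both libraries, against 18.2% of protein-coding gene rows. Mrtfa, an actin-sensing coactivator, had 21.6 and 21.1 TPM and its relative Mrtfb had 10.8 and 28.9. Mef2c, a muscle transcription factor, had 120 and 165 TPM, Abra, an activator of MRTF signalling in striated muscle, 78.6 and 70.0, Tead1 28.4 and 68.8, and the myogenic factor Myod1 2.31 and 17.2. Srf itself had 46.0 expected counts in replicate 1 and 0 in replicate 2 and was under the detection limit in both. Mef2d, Vgll2 and Tead4 were detected in replicate 2 alone. Myocd, the smooth and cardiac coactivator, Fhl2 and Yy1 had 0 counts in both. The median centred log2 ratio of the 7 compared genes was −1.32, toward replicate 2.

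Across 8 lists of genes that work with actin, 75 of 113 genes (66.4%) were detected in both libraries, against 18.2% of protein-coding gene rows; the lists were chosen with earlier results known. The proteins of the thin filament were the most complete, with 18 of 19. Tnnc2, the calcium-binding troponin C of fast fibres, had 19158 and 20385 TPM, Tnnt3, the troponin T that ties the complex to tropomyosin, 7674 and 13145, and the tropomyosin gene Tpm1 8304 and 10566. Sarcomeric actin exceeded Tnnc2 3.66-fold and 3.46-fold, a log2 ratio of 1.83 ± 0.06. It exceeded the sum of Tpm1, Tpm2 and Tpm3 5.14-fold and 3.52-fold, at 2.09 ± 0.39, and the giant filament protein gene Neb 42.6-fold and 30.6-fold, at 5.17 ± 0.34. It stood 163-fold and 110-fold above Cfl2, the muscle cofilin that cuts filaments, at 7.06 ± 0.41. All 4 ratios exceeded 2 SD, and the one to Tnnc2 varied least. The exception among the 19 was Lmod3, a nucleator of thin filaments, with 0 and 4695 expected counts; it is mentioned with its values known.

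Genes that bind free actin or take filaments apart were detected in both libraries for 12 of 15 members. The highest were Tmsb4x, which holds actin monomers in reserve, at 733 and 1284 TPM, Pfn1, which feeds monomers to growing ends, at 455 and 826, and Tmsb10 at 446 and 682. Each of these had the higher level in replicate 2, opposite to the cytoplasmic actins. Cytoplasmic actin was 4.63-fold and 1.66-fold above Tmsb4x (log2 ratio 1.47 ± 1.05) and 7.46-fold and 2.58-fold above Pfn1 (2.13 ± 1.08), and neither ratio exceeded 2 SD. Its ratio to Cfl1, the general cofilin, was 10.5-fold and 4.01-fold (2.70 ± 0.99) and did. Centred on the median gene, the median log2 ratio of replicate 1 to replicate 2 was −0.70 over the 12 compared members of this list and −0.55 over 18 of the thin filament list. The median of all compared genes is 0 by construction.

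Branching and crosslinking genes were covered in part. Of the genes that nucleate or branch filaments, 8 of 16 were detected in both libraries, led by the Arp2/3 complex subunits Arpc4 at 246 and 145 TPM, Arpc3 at 174 and 31.7 and Actr3 at 42.2 and 160. Crosslinking and anchoring genes gave 12 of 16, led by Actn2, the alpha-actinin of the Z-disc, at 1916 and 1823 TPM, its fast-fibre relative Actn3 at 221 and 509, and Plec at 155 and 176. Their median centred log2 ratios were 0.54 over 8 genes and 0.02 over 13.

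New actin needs help to fold, through the chaperonin CCT and its partner prefoldin, and 14 of 15 genes of that list were detected in both libraries. Cct6a had 379 and 255 TPM, the prefoldin subunit gene Pfdn5 367 and 251, and Cct5 242 and 282, and the median centred log2 ratio of 14 genes was 0.04. The prefoldin gene Pfdn6, chosen for mention with its values known, was missed with 1.00 and 1699 expected counts. Of the genes listed for actin maturation, Naa10 had 87.3 and 125 TPM and Setd3, which methylates a histidine of actin, 52.9 and 44.1. Naa80, the acetyltransferase of the actin N-terminus, had 0 and 14.9 TPM. Of 15 actin-like and actin-related genes, 3 were detected in both libraries, Actl6a at 84.4 and 29.3 TPM, Actr1b at 85.0 and 24.8 and Actr10 at 37.9 and 22.6. Actr1a had 66.1 and 0.110 TPM and Actr6 0 and 5.45. The other 10, among them the close relative Actbl2, had 0 counts in both libraries.

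For each actin, the 2 genes with the smallest distance in log2(TPM + 1) over both libraries were named, which describes likeness in level over 2 points only. Acta1 had no near neighbour, and the closest were Myl1 at a distance of 1.92 and Tnnc2 at 2.37. Those of Actc1 were Tpm2 at 0.23, with 4851 and 8725 TPM, and the pseudogene Gm29216 at 0.33. Those of Acta2 were Cfl1 at 0.12 and H2afz at 0.13. Actb lay nearest to the growth factor gene Igf2 at 0.11 and to Rpl36 at 0.20, and Actg1 to Rps27a at 0.08 and the collagen gene Col1a2 at 0.15. Actg2 lay nearest to C1qtnf12 and Ramp2, which likewise had 0 TPM in replicate 1 and had 42.2 and 42.3 in replicate 2. Of the 6 actins, Acta1 alone stood more than 1 log2 unit away from every other gene.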

How the data were processed

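A gene table and a transcript table were used for each library. The expected counts deposited are estimated reads that were not normalized. TPM values deposited by the authors are scaled to a fixed sum that covers genes and spike-ins. Percent values per transcript were deposited by the authors as well and were recomputed here from TPM. Column names per the file headers belong to RSEM run with its posterior sampler, and per the deposited descriptions reads were assigned on mm10 with GENCODE M4. The aligner is not given in the sources used here. The same is true of strand, so reads of antisense genes may not be told apart. Symbols, coordinates and coding sequences came from GENCODE M21 on GRCm38 and promoters from RefSeq, matched by identifier or symbol.

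Numbered rows and phiX were left out. The gene family, named by symbol, and the gene lists were chosen with earlier results of these data known. The text names all actins, transcripts with at least 5% of their gene in either library, the 3 highest genes of each list and every gene of the smooth muscle, heart and SRF lists (1 gene of the last is not reported here), the 2 nearest genes per actin, and pseudogenes or actin-like genes with at least 5 expected counts, at most 5. No test was run on 1 group of 2 libraries. edgeR 4.0.16 in R 4.3.3 served only for TMM factors, and other steps used Python 3.11.15, numpy 2.4.6, pandas 2.3.3, scipy 1.17.1 and matplotlib 3.10.9. Only the centred ratio between libraries, with counting noise alone, and the count of shared windows were tested on simulated data.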

Additional observations from a re-analysis of the deposited data

How the results depend on the processing

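Over 30 results and 156 alternatives, 145 values stayed on the same side of their threshold, within 1 SD or within a set fold. That number includes alternatives that could not differ, such as those leaving out a library, so it is no measure of stability. A reversal was possible only for the log2 ratios of gene pairs, and none of these reversed. Shares and levels cannot turn negative, and no actin was called between the libraries as reported. No actin was past 2-fold between the libraries as reported; 2 were when centred on spike-ins (Actc1 and Acta2, each −1.60) and 1 with TMM factors on counts (Actg1, 1.02). Centring on spike-ins also turned the sign of the ratios of Acta1, Actb and Actg1, none of them past the fold. The share of genes past the fold, 51.0% as reported, was 25.2% at 4-fold and 12.7% at 10000 counts, an alternative chosen after seeing the data. Expected counts in place of TPM moved the log2 ratio of Actc1 to Acta2 to 3.87, and the shares of Actb-201 to 97.8% and of Actg1-204 to 44.2%; scaling to genes only moved Acta1 to 67980 TPM. Without replicate 1 or replicate 2, each value is that of the other library, which with n = 2 always lies within 1 SD, so this gives no sign of stability: skeletal actin ranged from 84.4% to 87.3%, cardiac from 7.67% to 11.9%, smooth muscle from 0.431% to 0.724% and cytoplasmic from 2.91% to 4.59%. The gene partners detected numbered 84 at 1 expected count and 66 at a TPM of 10, against 75. No paired analysis was possible because the libraries form 1 group and no other group shares their replicate numbers.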
